A study of Mus musculus with 5 samples.

Results

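The genes described are 33 members of the interferon response and of the MHC class I presentation pathway, followed through the nuclei of mouse hippocampus. Members were chosen by symbol among the gene features of single-nucleus multiome libraries, in which RNA and open chromatin are read from the same nucleus, and all 33 were found among 32285 gene features. They comprise 5 transcription factors, 2 RNA sensors, 16 antiviral effectors and regulators, 7 genes of class I presentation and 3 guanylate-binding proteins. The study made 5 libraries, 1 per genotype. One was from wild type mice and one from 5xFAD mice, which carry human amyloid precursor protein and presenilin transgenes with familial Alzheimer's disease mutations. The other 3 were from 5xFAD mice labelled as lacking MAGL (monoacylglycerol lipase, the product of Mgll, which degrades an endocannabinoid) in astrocytes, in neurons or in the whole animal. Age, the Cre driver and the number of animals pooled are not given in the sources used here. The labels give the same batch name for all 5 libraries.

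Interferon binding to its receptors activates Janus kinases, which signal to transcription factors. The Stat2 and Irf9 products act in a complex that binds interferon-stimulated response elements in promoters and induces antiviral genes, whereas gamma-activated sequences serve the response to interferon gamma. Class I molecules, made of a heavy chain and beta-2 microglobulin, display peptides that the immunoproteasome cuts and the TAP transporter carries. In brain, microglia are the resident macrophages and are known to turn on interferon-stimulated genes around amyloid.

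Promoters of several members carry letters that match these elements, and 7 are shown because they cover the motif types and the members described later. RefSeq promoter windows on GRCm38.p6, from 250 bases before to 50 after the start, were found for 27 of the 33 members. GAAANNGAA, the core of the interferon-stimulated response element, was searched on both strands and lay in 15 of 27 member promoters (55.6%) against 9.76% of 27025 genes. TTCNNNGAA, the gamma-activated sequence, is the same on both strands and lay in 7 of 27 (25.9%) against 9.55% of genes. The windows of Ifitm3, Bst2, Eif2ak2 and Gbp7 held both, and the motifs can overlap. The windows of H2-D1, H2-K1, Tap1, Psmb9, Irf7, Irf9, Oasl2, Xaf1 and Rnf213 held neither string, which says only that these letters are not in that window. Capitals mark the matched letters, and each stretch reads 5′ to 3′ on the gene's strand. B2m, the class I light chain, is at chr2:122147523-122147581 on the plus strand. Stat2 is at chr10:128270252-128270310 on the plus strand. Bst2, a membrane tether of budding virus, is at chr8:71537563-71537633 on the minus strand, where a gamma-activated sequence overlaps the first of a pair of response elements. Isg15, a ubiquitin-like modifier, is at chr4:156200851-156200921 on the minus strand. Ifit1 and Ifit3, binders of viral RNA or its sensors, are at chr19:34640755-34640838 and chr19:34583349-34583460, both on the plus strand. Irf1 is at chr11:53769899-53769957 on the plus strand and is the example of a gamma-activated sequence alone.
B2m: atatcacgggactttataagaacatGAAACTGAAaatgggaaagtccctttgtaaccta
Stat2: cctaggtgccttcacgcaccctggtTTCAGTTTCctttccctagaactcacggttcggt
Bst2: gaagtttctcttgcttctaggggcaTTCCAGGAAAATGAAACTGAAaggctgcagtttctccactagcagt
Isg15: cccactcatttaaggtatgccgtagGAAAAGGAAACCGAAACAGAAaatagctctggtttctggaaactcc
Ifit1: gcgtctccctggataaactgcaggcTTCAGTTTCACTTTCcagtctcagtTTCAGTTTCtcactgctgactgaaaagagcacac
Ifit3: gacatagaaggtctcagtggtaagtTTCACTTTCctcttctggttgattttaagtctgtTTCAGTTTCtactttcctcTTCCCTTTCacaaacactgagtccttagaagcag
Irf1: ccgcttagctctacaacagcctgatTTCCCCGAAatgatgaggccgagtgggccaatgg

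Lists of 5 values follow the order wild type, 5xFAD, astrocyte MAGL-KO, neuron MAGL-KO, global MAGL-KO. The libraries held 5014, 4961, 5855, 3917 and 7031 usable nuclei. Over all deposited nuclei they held 101931020 to 159532813 gene UMIs (unique molecular identifiers, the count of RNA molecules) each. Each library shared 134 to 223 of its barcodes with other libraries. Nuclei were clustered without the members and named from marker genes, and 8.90 to 10.5% of nuclei stayed unnamed. Class names stand for clusters that are microglia-like, oligodendrocyte-like and so on. Mgll, the gene that should be deleted, does not bear out the labels: its level was 69.6, 73.1, 88.7, 91.5 and 78.1 CPM (UMIs per 1000000 UMIs of the class) in excitatory neurons and 493, 346, 483, 403 and 429 CPM in astrocytes. Which part of Mgll was removed is not stated there either, so counts over the whole gene may not check the deletion, and the 3 libraries are called astrocyte-, neuron- and global-labelled KO, after their labels only. Xist-positive and Y-linked-positive nuclei occurred in all 5 libraries, so each held nuclei of both sexes, in unequal balance (2811 and 617 nuclei in the neuron-labelled KO library, 1758 and 2499 in 5xFAD). With 1 library per group there is no replicate and no test between groups, and intervals are exact 95% intervals for counting error only.

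Most members had their highest level in microglia, though the sparse ones less steadily. With UMIs summed per class and divided by the class total, and the 5 libraries pooled, 31 of 33 members had their highest level in microglia among the 5 classes compared (microglia, oligodendrocytes, astrocytes, excitatory and inhibitory neurons). Of all 28031 genes with a UMI in these classes, 27.4% had theirs there. B2m stood at 757 CPM in microglia against 45.4 in oligodendrocytes, 39.8 in astrocytes and 6.18 in excitatory neurons. H2-D1, a class I heavy chain, stood at 455, 42.9, 14.6 and 2.55 CPM in the same order. Trim30a, a regulator of innate immune signalling, stood at 348, 3.53, 11.7 and 2.14 CPM. The exceptions were Ifi27, a mitochondrial interferon-induced protein, with 38.8 CPM in oligodendrocytes against 31.5 in microglia, and Gbp3, with 2.92 CPM in astrocytes against 2.17. Xaf1, a promoter of apoptosis, was nearly as high in oligodendrocytes (38.1 CPM) as in microglia (42.3 CPM). Stat2, a transcription factor of the interferon complex, differed less between classes, at 73.8, 31.0, 32.1 and 20.5 CPM. Library by library, microglia were highest, with at least 1 UMI, in all 5 libraries for 15 of the 33 members, in 2 for Isg15 and Xaf1 and in 1 for Ifit1. Vascular nuclei, only 13 to 21 a library and not among the 5 classes, had a higher pooled level than microglia for 8 members, among them Ifitm3 (86.1 against 11.9 CPM), Ifi27 (55.1 against 31.5), Ifit1 (17.2 against 5.43) and Isg15 (13.8 against 2.17). The microglial class held all 12 of its own markers in every library, at 15805 to 17803 CPM in sum.

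Microglia of the 5xFAD library had more interferon-response and class I RNA than those of the wild type library. The 33 members together stood at 1177 CPM in wild type and 3473 CPM in 5xFAD, a ratio of 2.95 (interval 2.42 to 3.63). The sum of the 7 class I genes was 483 and 1614 CPM (ratio 3.34, 2.45 to 4.65), and that of the other 26 members was 694 and 1859 CPM (2.68, 2.06 to 3.53). The second ratio rests on few nuclei: 13 of the 85 in 5xFAD, rich in these members as defined below, held 61.8% of their UMIs. Without such nuclei the ratio was 1.23 (0.913 to 1.66), an interval that includes 1. Those nuclei were chosen by the UMIs that are summed, so leaving them out lowers a sum by construction. A member was counted as measured with at least 10 UMIs over both libraries, and as past 2-fold when the ratio with 5 CPM added to both levels reached 2. By this rule 18 of 33 members were measured, 11 were higher and 0 lower, where 13.7% and 7.4% of the 5487 genes measured were higher and lower. The count of 11 was 6 with a minimum of 30 UMIs, 20 with none and 5 in nuclei with Y-linked transcripts. The number of members measured and the share of all genes past 2-fold change with these settings and are not given for them. These alternative counts are thus not set against a background. The 11 were Stat2, Nlrc5, Ifih1, Oasl2, Usp18, Parp14, Rnf213, Eif2ak2, B2m, H2-D1 and H2-K1. Of these, Stat2, Oasl2 and Usp18 had 0 UMIs in wild type and Nlrc5 had 1, so they met the minimum through 5xFAD. The rule could then only call them higher. Their calls were thus fixed by the minimum, which applied to all genes as well. The median member log2 ratio was 1.31, or 1.17 with members at 0 in wild type set to 3 counts, and that of all genes was 0.03. The wild type library had 43 microglial nuclei, against 85, 122, 52 and 95 in the others, so 1 UMI weighs 10.5 CPM there and a gene with 0 UMIs there is set against a floor of 3 counts, or 31.5 CPM. Folds written as at least a value take the 5xFAD level over that floor, and the exact lower limit of the ratio, which counts the error of both libraries, is given beside them.

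**Figure D1:**
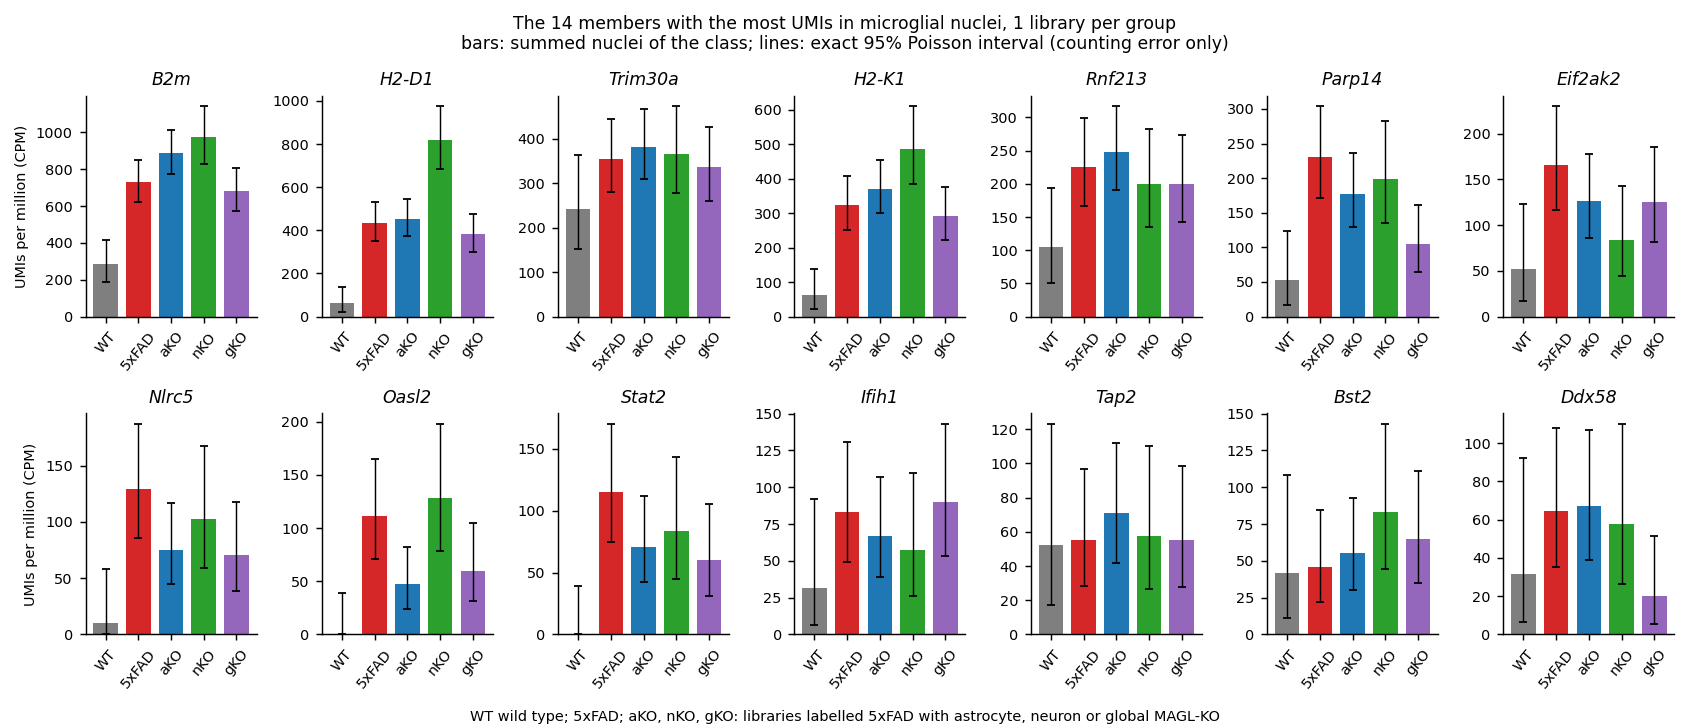
Level in CPM of the 14 members with the most UMIs in microglia, 1 panel per gene and 1 bar per library, with exact 95% Poisson intervals. The wild type bar is the lowest for B2m (284 CPM), H2-D1 and H2-K1 (63.0 CPM each), and H2-D1 is highest in the neuron-labelled KO library (821 CPM).

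Among the transcription factors, Nlrc5, the activator of class I genes, was seen with 1, 28, 19, 16 and 14 UMIs in microglia (10.5, 129, 74.8, 103 and 70.2 CPM). Wild type was lowest and the 5xFAD to wild type ratio was 12.3, with an interval of 2.03 to 503 because it rests on 1 wild type UMI. Stat2 had 0, 25, 18, 13 and 12 UMIs (0, 115, 70.9, 83.3 and 60.1 CPM). It had no UMI in the 43 wild type nuclei and had UMIs in every 5xFAD library, and was at least 3.66-fold higher in 5xFAD (exact lower limit 2.76). Irf9, its partner, stood at 21.0, 41.5, 43.3, 64.1 and 40.1 CPM, and Irf1 at 21.0, 41.5, 27.6, 6.41 and 45.1 CPM. Irf7, the amplifier of type I interferon production, had 7 UMIs over all 5 libraries and gives no order. The RNA sensor Ifih1 stood at 31.5, 83.0, 66.9, 57.7 and 90.2 CPM (ratio 2.63, 0.769 to 14), and the sensor Ddx58 at 31.5, 64.6, 66.9, 57.7 and 20.0 CPM (2.05, 0.572 to 11.1). Both sensors had 3 UMIs in wild type, and both intervals include 1.

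The effector with the most UMIs was not the one with the largest ratio. Trim30a had 23, 77, 97, 57 and 67 UMIs (242, 355, 382, 365 and 336 CPM), a 5xFAD to wild type ratio of 1.47 whose interval of 0.912 to 2.45 includes 1. Parp14, a mono-ADP-ribosyltransferase, stood at 52.5, 231, 177, 199 and 105 CPM (ratio 4.39, 1.76 to 14.1). Rnf213, a large ubiquitin ligase, stood at 105, 226, 248, 199 and 200 CPM (2.15, 1.08 to 4.76). Every 5xFAD library was above wild type for these 3 genes. Eif2ak2, the double-stranded RNA kinase that halts translation, stood at 52.5, 166, 126, 83.3 and 125 CPM (3.16, 1.24 to 10.3). Oasl2, of the oligoadenylate synthetase family, had 0, 24, 12, 20 and 12 UMIs (0, 111, 47.3, 128 and 60.1 CPM) and was at least 3.51-fold higher in 5xFAD than in wild type (exact lower limit 2.64). Usp18, which removes the Isg15 modifier and damps receptor signalling, had 0, 14, 18, 8 and 1 UMIs (0, 64.6, 70.9, 51.3 and 5.01 CPM) and was at least 2.05-fold higher, with an exact lower limit of 1.46. The Usp18 level intervals of wild type (0 to 38.8 CPM) and 5xFAD (35.3 to 108 CPM) overlap. Bst2 stood at 42.0, 46.1, 55.1, 83.3 and 65.1 CPM, close between wild type and 5xFAD. Xaf1 stood at 10.5, 27.7, 59.1, 83.3 and 20.0 CPM, and Ifi27 at 31.5, 23.1, 55.1, 19.2 and 20.0 CPM. Several textbook interferon-stimulated genes were close to undetected: over the 5 libraries Ifit1, Ifit3 and Rsad2 had 5 UMIs each, Isg15 had 2, Ifitm3 11 and Ifi27l2a 10, while Ifit2 had 19.

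Class I presentation genes carried more of the microglial member UMIs than any other role in each of the 4 5xFAD libraries. B2m had 27, 158, 225, 152 and 136 UMIs (284, 729, 886, 974 and 681 CPM), with every 5xFAD library above wild type (5xFAD ratio 2.57, 1.7 to 4.02). H2-D1 had 6, 94, 115, 128 and 76 UMIs (63.0, 434, 453, 821 and 381 CPM; ratio 6.88, 3.04 to 19.2). H2-K1, the other classical heavy chain, had 6, 70, 94, 76 and 58 UMIs (63.0, 323, 370, 487 and 291 CPM; ratio 5.12, 2.24 to 14.4). For the 3 genes the counting intervals of the wild type level lay below those of each 5xFAD library. Heavy chain genes resemble each other in sequence, and how reads shared among them were counted was not tested. The transporter and immunoproteasome genes were sparser. Tap2 stood at 52.5, 55.3, 70.9, 57.7 and 55.1 CPM, close over libraries but from 5, 12, 18, 9 and 11 UMIs. Tap1 stood at 0, 36.9, 39.4, 25.6 and 30.1 CPM, and Psmb9 at 10.5, 32.3, 47.3, 44.9 and 45.1 CPM. Psmb8 had 13 UMIs in all. The guanylate-binding proteins, GTPases that attack pathogen vacuoles, had too few UMIs to set against this pattern. Their sum was 42.0, 36.9, 19.7, 19.2 and 55.1 CPM. Gbp7 gave 42.0, 36.9, 15.8, 19.2 and 35.1 CPM of it, from 4, 8, 4, 3 and 7 UMIs. Its wild type interval was 11.5 to 108 CPM. Gbp2 and Gbp3 had 3 and 2 UMIs over the 5 libraries, with all 3 of Gbp2 in the global-labelled KO library.

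Shares of nuclei were also lowest in wild type. A B2m UMI was found in 48.8, 81.2, 74.6, 88.5 and 66.3% of microglial nuclei, and in 21.4, 48.8, 48.3, 60.8 and 43.6% after each nucleus was thinned to 1000 UMIs. For H2-D1 the shares were 14, 60.0, 54.9, 76.9 and 51.6%, or 4.76, 32.1, 32.5, 51.0 and 25.5% thinned. Wild type was lowest and the neuron-labelled KO library highest for both. Excitatory neurons, in which class I genes are sparse, gave thinned B2m shares of 0.429 to 0.954%, from median depths of 14149 to 18182 UMIs against 2038 to 2820.5 in microglia.

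Nuclei of both sexes had more class I RNA in 5xFAD than in wild type. In microglial nuclei with Xist (21 and 44) the ratios were 2.62 (1.45 to 5.12) for B2m, 5.06 (2.05 to 16.1) for H2-D1 and 9.13 (2.38 to 77.7) for H2-K1. In those with Y-linked transcripts (14 and 31) they were 3.62 (1.73 to 8.74), 9.5 (1.53 to 393) and 4.98 (1.22 to 43.7). Markers of other immune cells also differed: T or NK cell markers summed to 0, 115, 3.94, 76.9 and 50.1 CPM in microglia (0, 7, 1, 6 and 3 of 11 detected), and border macrophage markers to 137, 73.8, 82.7, 70.5 and 546 CPM (2, 3, 2, 1 and 8 of 8). Of 8 neutrophil and monocyte markers 2 or 3 were detected, at 557 to 1083 CPM, with S100a8, S100a9 and Ly6g at 0. Without the 0, 3, 1, 1 and 4 nuclei that held at least 2 of the T, NK or border macrophage markers, the member sum was 1177, 3386, 3543, 4113 and 2856 CPM, against 1177, 3473, 3544, 4141 and 2861 CPM with them.

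In microglia of the libraries labelled MAGL-KO, class I RNA was above 5xFAD in the neuron-labelled one. In the astrocyte-labelled one it was above only by a sum whose lower limit was 1.01, with no single member's interval above 1. The sum of the other members had a direction that depended on a few nuclei. These 3 comparisons share the 5xFAD library, so each carries its error. The class I sum in microglia stood at 1614 CPM in 5xFAD and at 1878, 2449 and 1493 CPM in the astrocyte-, neuron- and global-labelled KO libraries, ratios of 1.16 (1.01 to 1.34), 1.52 (1.31 to 1.76) and 0.925 (0.79 to 1.08). The other 26 members stood at 1859 CPM in 5xFAD and at 1666, 1692 and 1368 CPM, ratios of 0.896 (0.78 to 1.03), 0.911 (0.777 to 1.07) and 0.736 (0.629 to 0.86), of which the first pair of intervals include 1. Without the nuclei rich in these members the 3 ratios were 1.49 (1.22 to 1.82), 1.18 (0.916 to 1.5) and 1.37 (1.11 to 1.7). The interval of the neuron-labelled KO library includes 1. Those nuclei were chosen by the UMIs that are summed and held the largest share of them in 5xFAD. Leaving them out thus raises these ratios by construction, and no direction is read from this sum. Of 23 members measured in the astrocyte-labelled KO library, 1 was past 2-fold higher (Ifi27) and 2 lower (Oasl2 and Gbp7), where 6.43% and 4.92% of 6937 genes were. Counts in the neuron-labelled KO library were 1 higher (Xaf1) and 1 lower (Irf1) of 21, where 6.79% and 6.73% of 6156 genes were. Counts in the global-labelled KO library were 0 higher and 3 lower (Ddx58, Usp18 and Parp14) of 22, where 5.22% and 6.11% of 6384 genes were. In the astrocyte- and neuron-labelled KO libraries these counts are near the shares of all genes. In the global-labelled KO library the 3 lower were 13.6% of the members measured, and the count was 1 with a minimum of 30 UMIs. No departure from the share of all genes is read from so few. Median member log2 ratios were 0.06, -0.15 and -0.18, and those of all genes 0.03, -0.01 and 0.00.

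Single members past the 2-fold rule rest on few UMIs. Parp14 had 50 UMIs in 5xFAD and 21 in the global-labelled KO library (ratio 0.456, 0.26 to 0.774), the member with the most UMIs among them. Usp18 had 14 and 1 (0.0776, 0.00184 to 0.51) and Ddx58 had 14 and 4 (0.31, 0.0744 to 0.988). Oasl2 had 24 in 5xFAD and 12 in the astrocyte-labelled KO library (0.427, 0.195 to 0.888), and Gbp7 had 8 and 4 (0.427, 0.0941 to 1.59). Ifi27 had 5 and 14 (2.39, 0.814 to 8.48). In the neuron-labelled KO library, Xaf1 had 13 UMIs against 6 (3.01, 1.07 to 9.66) and Irf1 had 1 against 9 (0.154, 0.00352 to 1.11). The intervals of Gbp7, Ifi27 and Irf1 include 1. In the same library the more deeply counted class I genes were below the 2-fold rule but outside counting error: H2-D1 at 1.89 (1.44 to 2.5), H2-K1 at 1.51 (1.08 to 2.12) and B2m at 1.34 (1.06 to 1.68). In nuclei with Y-linked transcripts, of which that library had 6 in microglia, the H2-K1 ratio was 0.843.

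**Figure D2:**
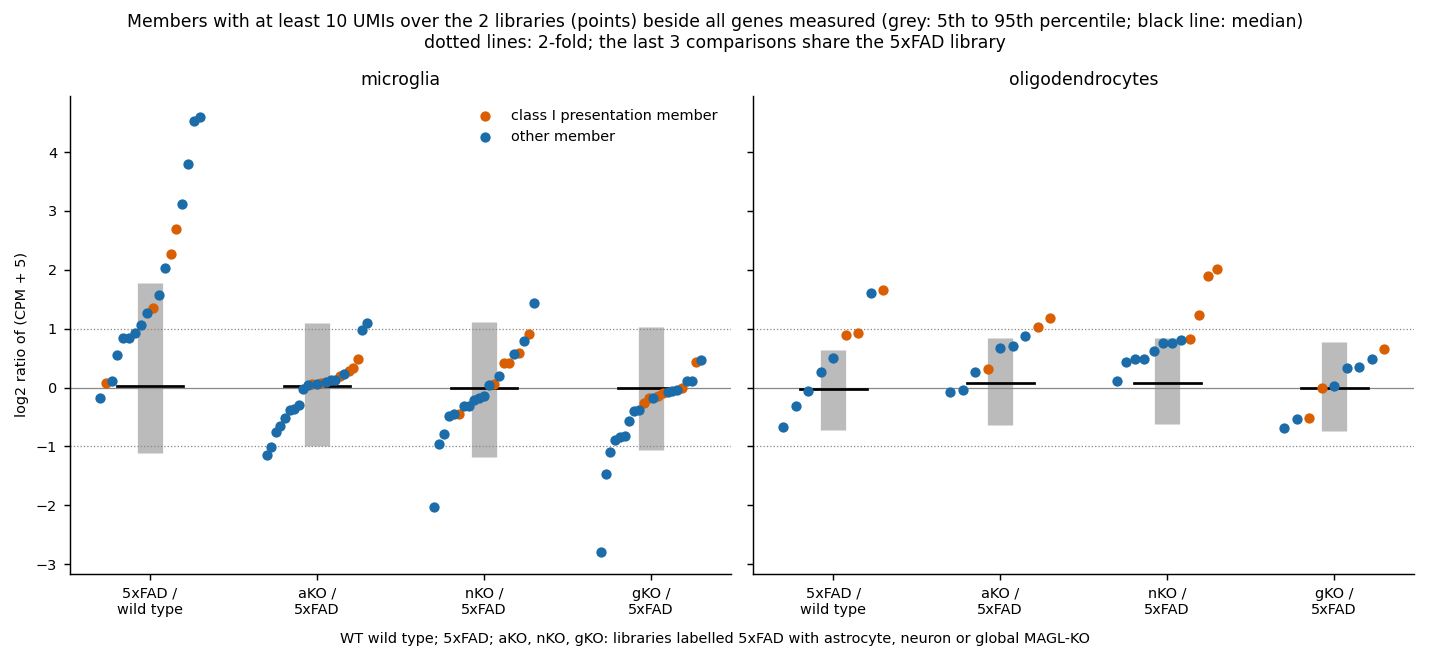
Log2 ratio of levels with 5 CPM added (y axis) for each measured member, in 4 comparisons (x axis), in microglia and oligodendrocytes, with the 5th to 95th percentile of all genes measured in grey and their median as a black line. In microglia 17 of 18 members lie above 0 for 5xFAD against wild type, and in oligodendrocytes 12 of 12 lie above 0 in the neuron-labelled KO library. The exact interval of the ratio lay above 1 for 10 and 4 of these members. The medians of all genes were 0.03 and 0.07, and the share of all genes above 0 is not given.

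Microglia fell into a pair of clusters that differed in Apoe, a marker of the amyloid-associated microglial state, and members were left out of the genes that formed them. Wild type microglia were all in the Apoe-low cluster (43 of 43), and 35.3, 41.0, 30.8 and 47.4% of those of the other libraries were. The 26 members outside class I summed to 694, 1025, 1124, 1517 and 1016 CPM in Apoe-low nuclei, and to 2226, 2025, 1769 and 1666 CPM in the Apoe-high nuclei of the 4 libraries that had them. Apoe-high nuclei were thus higher in each of the 4 libraries, though in the neuron-labelled KO library the intervals overlap (1187 to 1911 and 1528 to 2038 CPM). As the clusters came from the same nuclei, this is a description. Irf9, Nlrc5, Ifitm3, Oasl2, Bst2, Parp14, Rnf213, Eif2ak2, B2m and H2-D1 were higher in the Apoe-high nuclei of 4 of 4 libraries. The share of all genes for which this held is not given. Some of these differences are slight: Irf9 stood at 64.5 against 63.2 CPM in the neuron-labelled KO library. Ifitm3 rested on 11 UMIs against 0 over the 4 libraries. Pooled over these libraries the ratio of Apoe-high to Apoe-low was 3.42 for Oasl2, 2.54 for Eif2ak2, 2.08 for Nlrc5, 1.51 for B2m and 1.05 for H2-K1. Gbp7 went the other way, with 11.5 CPM in Apoe-high and 52.2 CPM in Apoe-low nuclei. Within the Apoe-low nuclei alone, 7 members were measured between 5xFAD (30 nuclei) and wild type (43), and Apoe itself stood at 1040 and 63.0 CPM there. Their median log2 ratio was 0.88, against -0.00 for all genes measured there.

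Much of the RNA of the 26 members outside class I lay in few microglial nuclei. Nuclei with at least 10 UMIs of them and at least 1000 CPM numbered 0, 13, 5, 12 and 3. They held 249 of the 403 such UMIs in 5xFAD (61.8%), 116 of 423 (27.4%), 147 of 264 (55.7%) and 49 of 273 (17.9%) in the astrocyte-, neuron- and global-labelled KO libraries, and the wild type library had 66 UMIs spread over nuclei with at most 8. Without these nuclei the sums were 694, 850, 1265, 999 and 1166 CPM, so 5xFAD, the highest of the 5 libraries with them, was the lowest of the 4 5xFAD libraries without them. As these nuclei were chosen by the UMIs summed, leaving them out lowers most the library with the largest share in them. One 5xFAD nucleus held 44 such UMIs of 2353 in total, led by Rnf213 with 10 and Parp14 with 7, and had 19 of the 33 members detected, class I genes included. All of the 33 nuclei so counted in microglia held at least 3 UMIs of microglial markers. After thinning to 1000 UMIs, nuclei with 5 or more such UMIs were 0 of 42 (0 to 8.41%), 9.52% (4.2 to 17.9), 8.33% (4.07 to 14.8), 7.84% (2.18 to 18.9) and 6.38% (2.38 to 13.4). The intervals of all 5 libraries overlap, wild type included.

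**Figure D3:**
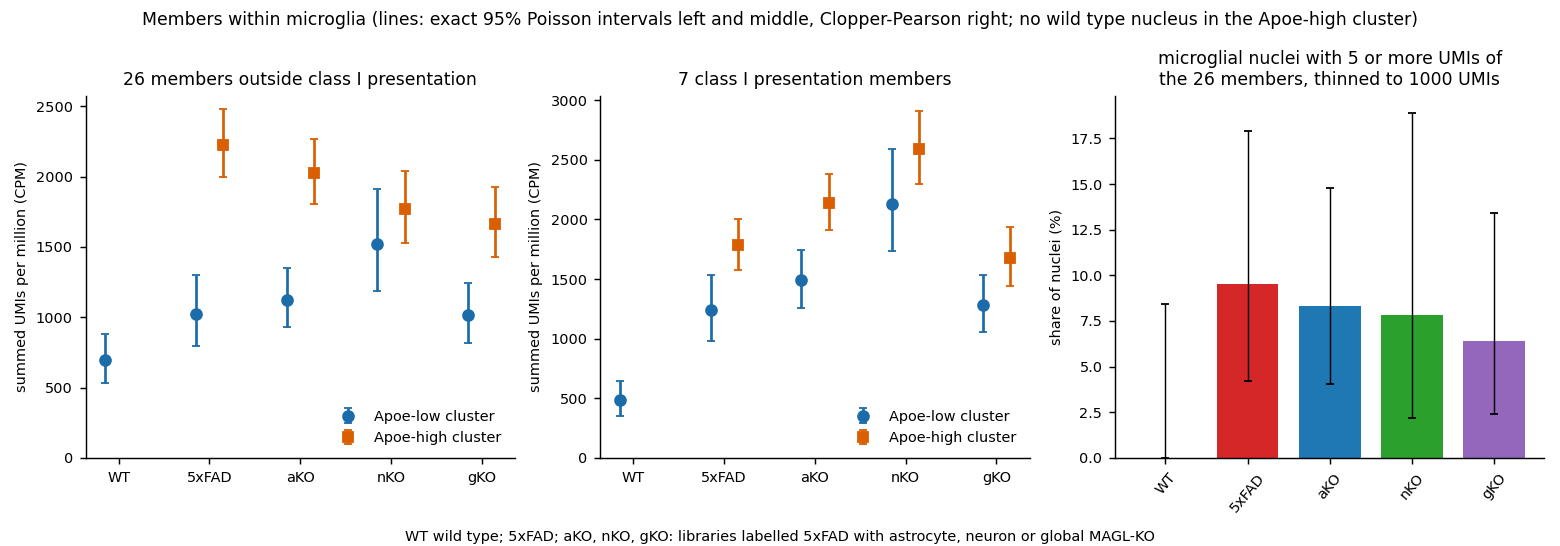
Summed CPM of the 26 other members (left) and the 7 class I members (middle) in the Apoe-low and Apoe-high microglial clusters of each library, and the share of thinned nuclei with at least 5 UMIs of the 26 (right), with exact 95% intervals. In the left and middle panels, Apoe-high squares lie above Apoe-low circles in each of the 4 libraries that have both. Their intervals overlap in the neuron-labelled KO library in either panel. For class I they also overlap in the global-labelled KO library (1057 to 1532 and 1440 to 1938 CPM). The wild type share is 0 of 42 nuclei, with an interval (0 to 8.41%) that overlaps those of the other libraries.

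Oligodendrocytes showed class I genes at their highest in the neuron-labelled KO library. B2m had 4, 25, 42, 95 and 14 UMIs there (4.75, 25.6, 57.3, 109 and 25.7 CPM), so wild type was lowest, the astrocyte- and neuron-labelled KO libraries were above 5xFAD, and the global-labelled KO library stood with 5xFAD. H2-D1 had 7, 20, 39, 85 and 19 UMIs (8.32, 20.5, 53.2, 97.9 and 34.8 CPM) and H2-K1 had 5, 15, 15, 37 and 5 (5.94, 15.3, 20.4, 42.6 and 9.17 CPM). The 7 class I genes summed to 20.2, 67.5, 134, 260 and 73.3 CPM: 3.34-fold (1.94 to 6.08) for 5xFAD over wild type, then 1.98 (1.43 to 2.75), 3.86 (2.92 to 5.15) and 1.09 (0.715 to 1.63) for the other libraries over 5xFAD. The 26 other members differed less, at 122, 162, 239, 244 and 152 CPM, with ratios of 1.32 (1.02 to 1.71), 1.48 (1.18 to 1.84), 1.51 (1.22 to 1.87) and 0.942 (0.713 to 1.24). One nucleus of 303 in 5xFAD, with 17828 UMIs, held 26 of the 158 UMIs of these members there, and 1 in the astrocyte-labelled KO library held 23 of 175. Without this pair the sums were 122, 138, 208, 244 and 152 CPM and the ratios 1.12 (0.862 to 1.47), 1.51 (1.19 to 1.93), 1.78 (1.42 to 2.22) and 1.11 (0.83 to 1.47), so the first and last include 1.

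**Figure D4:**
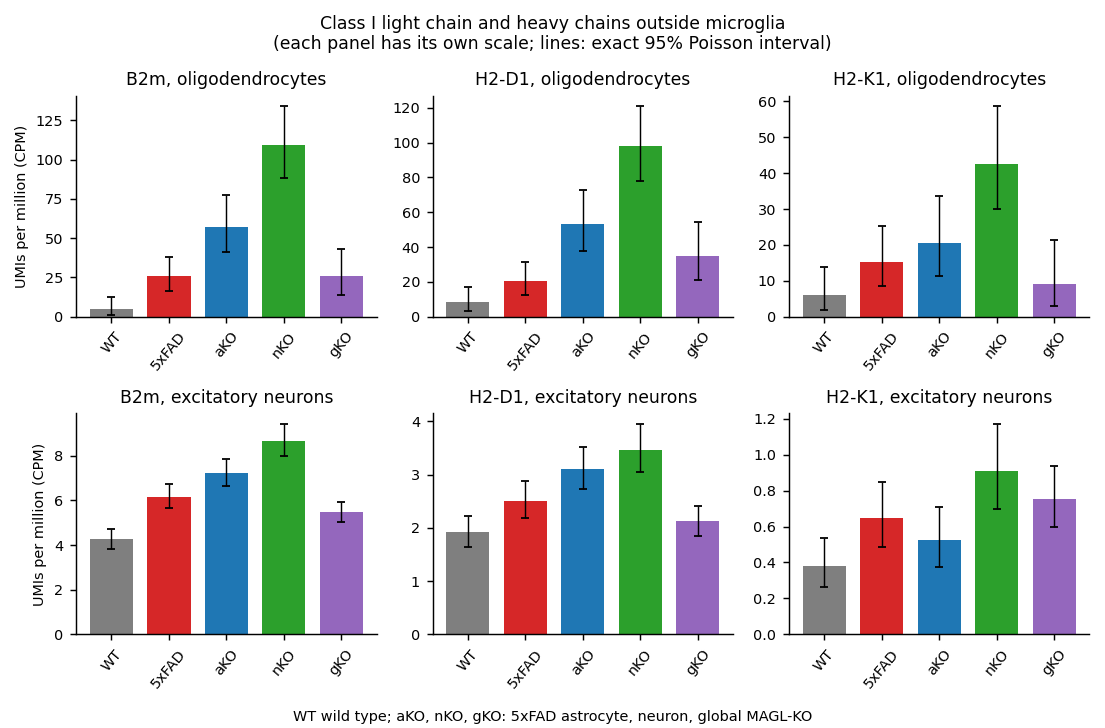
CPM of B2m, H2-D1 and H2-K1 in oligodendrocytes and excitatory neurons, 1 bar per library with exact 95% Poisson intervals and a scale per panel. In oligodendrocytes all 3 genes are highest in the neuron-labelled KO library, with B2m at 109 CPM against 4.75 CPM in wild type.

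By the same rule as in microglia, 9 members were measured in oligodendrocytes of 5xFAD against wild type, of which 2 were past 2-fold higher (Nlrc5 and B2m) and 0 lower, where 1.19% and 1.44% of 9662 genes were. Nlrc5 had 0 UMIs in wild type and met the minimum through 5xFAD alone, so the rule could only call it higher. In the astrocyte-labelled KO library 2 of 9 were higher (B2m and H2-D1) and 0 lower, where 2.85% and 1.32% of 9628 genes were. In the neuron-labelled KO library 3 of 12 were higher (B2m, H2-D1 and H2-K1) and 0 lower, where 2.79% and 1.15% of 9839 genes were. This count was 6 with 1 CPM added in place of 5 and 12 when nuclei were assigned by their highest marker score, and the count of 2 for 5xFAD against wild type was 4 with 1 CPM added and 0 with a minimum of 30 UMIs or in Y-linked nuclei. The share of all genes past 2-fold under these settings is not given, so the alternative counts are not set against it. In the global-labelled KO library 0 of 9 were higher and 0 lower, where 1.91% and 2.27% of 9181 genes were. The member medians were 0.50 (also with Nlrc5 set to 3 counts in wild type), 0.68, 0.76 and 0.02 on the log2 scale, and those of all genes -0.03, 0.07, 0.07 and 0.00. Without the added 5 CPM the member medians were 0.60, 0.76, 1.08 and 0.02, and those of all genes -0.04, 0.08, 0.08 and 0.00. In the neuron-labelled KO library the B2m ratio to 5xFAD was 4.28 (2.73 to 6.94), that of H2-D1 4.78 (2.91 to 8.22) and that of H2-K1 2.78 (1.49 to 5.45). In nuclei with Xist (117 in 5xFAD, 196 in the other) they were 2.55 (1.44 to 4.83), 3.48 (1.82 to 7.33) and 1.49 (0.717 to 3.34). In those with Y-linked transcripts (131 and 33) B2m was 3.98 (1.19 to 13.3) and H2-D1 1.71 (0.285 to 7.48), while the H2-K1 log2 ratio was -0.00. For all 3 genes the ratio within either sex was below the pooled one. The intervals of H2-K1 with Xist and of H2-D1 with Y-linked transcripts include 1. The intervals of B2m and of H2-D1 overlap between the sexes, and the part that the balance of the sexes has in the pooled ratios was not tested.

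Other members in oligodendrocytes kept a narrower range. Stat2 stood at 30.9, 29.7, 28.6, 43.8 and 16.5 CPM, a 5xFAD to wild type ratio of 0.96. Ifi27 stood at 27.3, 33.8, 57.3, 36.8 and 44.0 CPM and Xaf1 at 20.2, 30.7, 53.2, 55.3 and 31.2 CPM. Nlrc5 had 0, 10, 7, 16 and 3 UMIs (0, 10.2, 9.54, 18.4 and 5.50 CPM) and was at least 2.87-fold higher in 5xFAD than in wild type (exact lower limit 1.93). Rnf213 stood at 17.8, 13.3, 28.6, 20.7 and 18.3 CPM, Eif2ak2 at 2.38, 5.11, 4.09, 12.7 and 9.17 CPM, Ifit2 at 9.51, 4.09, 2.73, 10.4 and 5.50 CPM, and Irf9 at 0, 7.16, 9.54, 11.5 and 1.83 CPM. The remaining 22 members had fewer than 20 UMIs over the 5 libraries, and Gbp2 and Isg15 had 0.

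Microglial marker RNA in the oligodendrocyte class summed to 45.2, 51.1, 73.6, 56.4 and 69.7 CPM, against 15805 to 17803 CPM in microglia. Wild type and then 5xFAD were lowest, as for the class I sum, and the astrocyte-labelled KO library was highest. In oligodendrocyte nuclei without any UMI of the 12 microglial markers (280, 262, 260, 220 and 181 nuclei) B2m, H2-D1 and H2-K1 summed to 12.2 (5.56 to 23.1), 60.3 (44.8 to 79.5), 147 (118 to 181), 248 (213 to 287) and 75.1 (52.0 to 105) CPM. Over all oligodendrocyte nuclei the sum was 19.0, 61.4, 131, 250 and 69.7 CPM, the same order. The wild type sum was thus 19.0 CPM with and 12.2 CPM without the nuclei that held a microglial marker UMI. Most nuclei enter both sums, so the sums are not independent, and a nucleus without a marker UMI can still hold microglial RNA. Whether such RNA adds to these class I values was not tested. A B2m UMI was found in 4, 19, 27, 52 and 11 nuclei (1.29, 6.27, 8.85, 19.8 and 5.14%, or 0.651, 2.0, 3.62, 9.96 and 1.42% thinned to 1000 UMIs), so the B2m RNA of the neuron-labelled KO library came from 52 nuclei.

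Astrocytes were few (70, 46, 47, 28 and 31 nuclei), and intervals are wide. Of 9 members measured between 5xFAD and wild type, 2 were past 2-fold higher, Irf9 (3.0, 0.685 to 18.0) and H2-K1 (2.89, 0.807 to 12.9), and 0 lower, where 5.07% and 5.53% of 7141 genes were. Both intervals include 1. H2-K1 stood at 13, 37.5, 111, 75.2 and 52.5 CPM, with the highest level in the astrocyte-labelled KO library. The class I sum was 68.1, 121, 255, 183 and 140 CPM, 2.11-fold (1.3 to 3.48) higher in the astrocyte-labelled KO library than in 5xFAD. To that sum H2-K1 gave 20 UMIs in the astrocyte-labelled KO library and 9 in 5xFAD. Rnf213 stood at 35.7, 50.0, 38.8, 107 and 26.2 CPM, and Eif2ak2 at 38.9, 41.7, 33.3, 69.9 and 17.5 CPM. Both were highest in the neuron-labelled KO library, where the 26 members outside class I summed to 505 CPM against 271 CPM in 5xFAD (1.86, 1.34 to 2.6). In that library 1 of the 28 nuclei held 32 of the 94 such UMIs, led by Rnf213 with 8 and Eif2ak2 with 5, and carried 3 microglial marker UMIs. Without nuclei this rich the sums were 347 CPM there and 192 CPM in 5xFAD. Another nucleus of that library, with 43551 UMIs or 23.4% of the class total, held 24 of the 94 and 5 microglial marker UMIs. Without both the sum was 281 CPM there, and 5xFAD without its rich nucleus and its largest stood at 203 CPM. Library by library, the 5 astrocyte nuclei with the most member UMIs held 17.8, 38.3, 43.1, 70.3 and 42.9% of the member UMIs. These astrocyte values thus rest on few nuclei, most of all in the neuron-labelled KO library. B2m stood at 29.2, 45.9, 61.0, 32.2 and 35.0 CPM, and Stat2 at 38.9, 33.4, 38.8, 26.9 and 8.75 CPM. Tap2 stood at 22.7, 16.7, 49.9, 26.9 and 43.7 CPM, with 9 UMIs in the astrocyte-labelled KO library against 4 in 5xFAD (2.99, 0.836 to 13.3). Ddx58 stood at 22.7, 33.4, 27.7, 53.7 and 26.2 CPM, Ifi27 at 19.5, 29.2, 22.2, 26.9 and 26.2 CPM, and Irf9 at 9.73, 29.2, 11.1, 26.9 and 26.2 CPM. The other 24 members had 18 UMIs or fewer over the 5 libraries.

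Excitatory neurons had the members at low levels and, through 65913991 to 107541191 UMIs a library, with narrow counting intervals. Of 29 members measured between 5xFAD and wild type, 0 were past 2-fold higher or lower, where 0.0238% and 0% of 20969 genes were, and the 5 CPM added before the ratio exceeds the level of most members. Stat2, the most abundant by UMIs, stood at 16.3, 20.8, 22.4, 20.0 and 22.5 CPM (5xFAD to wild type 1.27, 1.19 to 1.37). B2m stood at 4.25, 6.16, 7.24, 8.68 and 5.48 CPM (1.45, 1.27 to 1.66), lowest in wild type and highest in the neuron-labelled KO library, as in microglia and oligodendrocytes. H2-D1 stood at 1.92, 2.51, 3.11, 3.47 and 2.12 CPM, with the same lowest and highest library. Irf1 was lower in 5xFAD than in wild type and higher in the other 3 libraries than in 5xFAD, at 2.55, 1.81, 3.36, 3.75 and 2.64 CPM (5xFAD ratio 0.709, 0.573 to 0.876). Rnf213 stood at 1.60, 1.83, 3.93, 2.85 and 2.31 CPM, Trim30a at 1.75, 1.51, 2.19, 3.87 and 1.83 CPM, and Bst2 at 0.203, 0.439, 0.691, 1.32 and 0.716 CPM. Irf9 stood at 3.62, 4.21, 3.66, 4.52 and 4.96 CPM and Ifi27 at 2.77, 2.70, 4.85, 5.14 and 4.04 CPM. Eif2ak2 stood at 1.68, 2.20, 3.17, 2.87 and 2.48 CPM, Ddx58 at 1.44, 1.45, 2.61, 2.08 and 1.86 CPM, and Tap2 at 1.46, 1.45, 1.5, 1.87 and 1.41 CPM. Lower still were Xaf1, at 0.507, 0.549, 0.921, 1.14 and 0.772 CPM, and Ifih1, at 0.608, 0.573, 0.972, 0.895 and 0.521 CPM. Oasl2 had 6 UMIs in wild type and 34 in 5xFAD (6.14, 2.55 to 17.9). Only Ifi27l2a, Gbp3 and Gbp2 had fewer than 20 UMIs over the 5 libraries, with 18, 6 and 5.

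The class I sum of excitatory neurons was 8.63, 11.2, 13.1, 15.6 and 10.3 CPM, with ratios of 1.3 (1.18 to 1.43) for 5xFAD over wild type and 1.17 (1.07 to 1.28), 1.4 (1.28 to 1.53) and 0.921 (0.843 to 1.01) for the astrocyte-, neuron- and global-labelled KO libraries over 5xFAD. The median of all genes measured in this class, also without an added 5 CPM, was a log2 ratio of -0.02 for 5xFAD over wild type and of 0.26, 0.23 and 0.05 for these 3, or 1.2-fold in the astrocyte-labelled and 1.17-fold in the neuron-labelled KO library. The class I ratio of the astrocyte-labelled KO library is thus no higher than that of the median gene. The median log2 ratio of all members measured in this class, likewise without the added 5 CPM, was 0.12, 0.75, 0.64 and 0.18 in the same order. Microglial markers in this class summed to 42.4, 42.1, 63.3, 62.2 and 43.5 CPM and were higher in the astrocyte- and neuron-labelled KO libraries, where class I genes were too. In excitatory nuclei without a microglial marker UMI (1763, 1731, 1786, 983 and 2862 nuclei) B2m, H2-D1 and H2-K1 summed to 6.75, 10.1, 11.5, 13.5 and 8.26 CPM, against 6.55, 9.32, 10.9, 13.1 and 8.35 CPM in all. Inhibitory neurons had 16 members measured between 5xFAD and wild type, of which 0 were past 2-fold, where 0.00632% of 15812 genes were higher and 0.019% lower. B2m stood there at 3.62, 6.62, 6.81, 9.16 and 5.67 CPM (1.83, 1.13 to 3.02) and H2-D1 at 1.67, 3.42, 4.78, 5.40 and 3.34 CPM (2.04, 1.02 to 4.37), and for both genes wild type was again lowest and the neuron-labelled KO library highest. Stat2 stood at 16, 18.1, 18.4, 18.3 and 19.7 CPM, Irf9 at 3.76, 3.86, 4.66, 4.58 and 5.06 CPM, and Ifi27 at 3.76, 2.98, 4.78, 5.76 and 2.73 CPM. Eif2ak2 stood at 2.79, 3.42, 4.30, 4.46 and 4.05 CPM, Rnf213 at 2.93, 2.21, 3.46, 5.17 and 4.56 CPM, Ifit2 at 3.90, 2.87, 3.34, 3.17 and 3.04 CPM, and Tap2 at 3.07, 1.99, 2.39, 4.23 and 2.02 CPM. Trim30a, Rnf213, Tap2 and Oasl2 were highest in the neuron-labelled KO library, Trim30a at 1.39, 1.43, 2.75, 4.70 and 2.02 CPM and Oasl2 at 0.558, 1.21, 2.15, 2.70 and 0.810 CPM. Ddx58 stood at 2.65, 1.77, 3.10, 2.35 and 1.82 CPM, H2-K1 at 1.25, 1.99, 1.91, 1.53 and 1.72 CPM, and Ifit1 at 0.976, 0.662, 2.03, 1.76 and 1.11 CPM. Another 14 members had 15 UMIs or fewer over the 5 libraries.

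**Figure D5:**
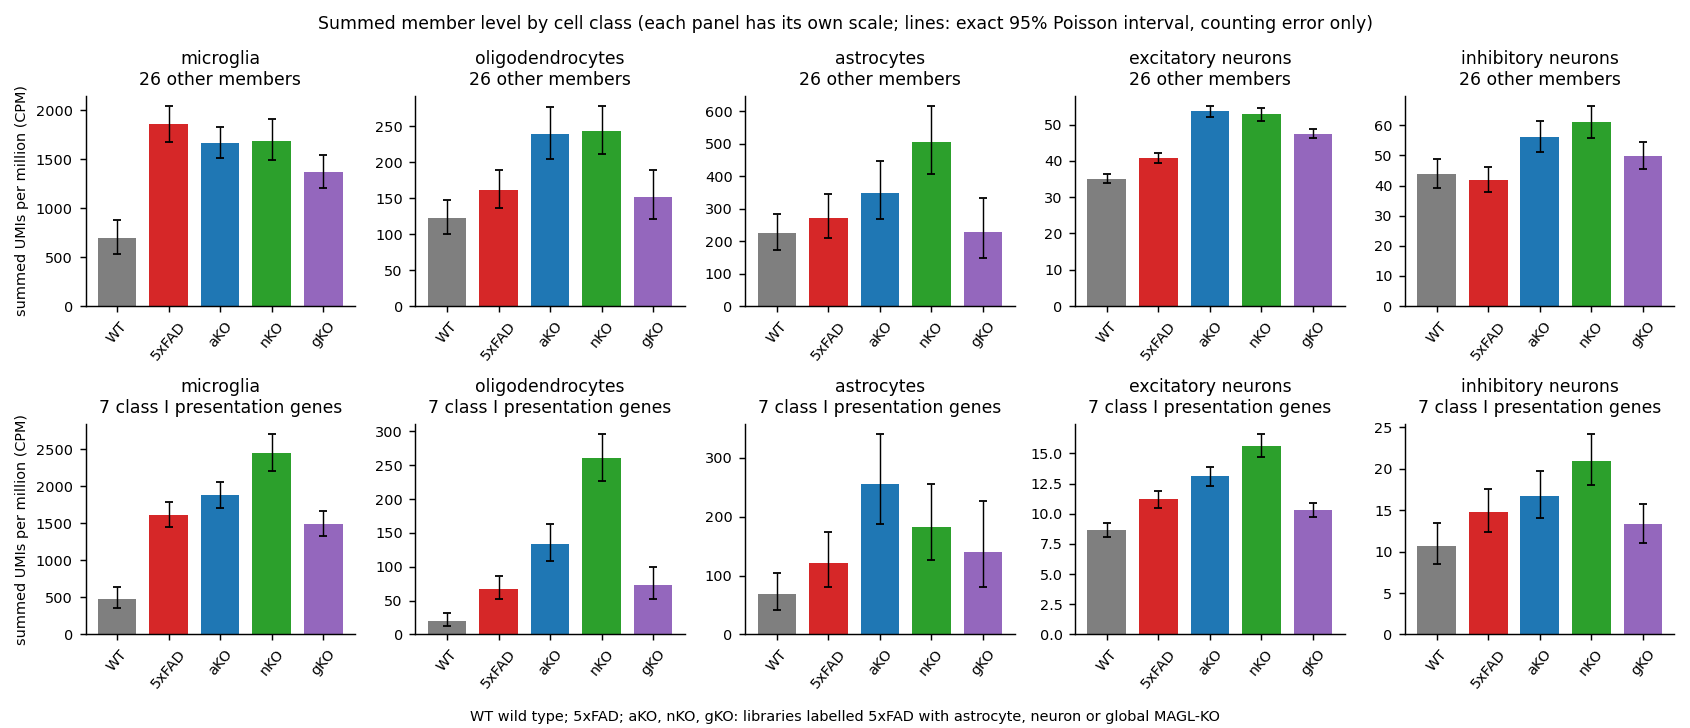
Summed CPM of the 26 members outside class I presentation (top) and of the 7 class I presentation genes (bottom) in each class and library, with exact 95% Poisson intervals and a scale per panel. Class I bars are lowest in wild type in every class, and those of the neuron-labelled KO library are highest in microglia (2449 CPM) and oligodendrocytes (260 CPM).

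Pathway genes outside the member list were read in the same way, from a list of 126 of which 122 were among the features. In microglia 65 were measured between 5xFAD and wild type, 26 past 2-fold higher and 2 lower (13.7% and 7.4% of all genes measured were), with a median log2 ratio of 0.61. The largest part was further interferon-stimulated genes, with 15 of 22 higher, 0 lower and a median of 1.45, and 6 of 14 antigen presentation genes were higher. No interferon gene of the 10 listed was measured. The type I receptor subunits did not follow: Ifnar1 stood at 63.0, 73.8, 74.8, 32.1 and 50.1 CPM and Ifnar2 at 284, 272, 268, 282 and 291 CPM. Ifngr1, the ligand-binding subunit for interferon gamma, was lower in 5xFAD, at 378, 180, 232, 179 and 220 CPM (0.475, 0.294 to 0.77), while Ifngr2 stood at 158, 291, 291, 199 and 251 CPM. Of the kinases, Jak1 stood at 263, 240, 209, 250 and 301 CPM, Jak2 at 63.0, 125, 110, 122 and 230 CPM and Tyk2 at 73.6, 32.3, 90.6, 70.5 and 70.2 CPM. Of the 6 listed genes with the most UMIs, Irf8, a microglial lineage factor, stood at 315, 466, 350, 455 and 421 CPM, Pias1 at 368, 401, 394, 378 and 416 CPM, and Irf2 at 410, 318, 394, 308 and 366 CPM. Canx, a chaperone of class I folding, stood at 305, 258, 287, 551 and 281 CPM, highest in the neuron-labelled KO library. The DNA sensor Aim2 stood at 347, 309, 335, 353 and 276 CPM and the RNA sensor Tlr7 at 252, 314, 268, 321 and 271 CPM. In oligodendrocytes 32 were measured between 5xFAD and wild type, 3 higher (Stat3, Herc6 and Rtp4) and 3 lower (Cd74, H2-Ab1 and H2-Eb1), where 1.19% and 1.44% of all genes were. In the neuron-labelled KO library 7 of 39 were higher than in 5xFAD (Parp12, Ddx60, Cd274, Igtp, Irgm1, Irgm2 and H2-T23) and 0 lower, where 2.79% and 1.15% of all genes were. By UMIs the listed genes that led were Jak2, Pias1, Canx, Irf2, Stat3 and Calr in oligodendrocytes, Pias1, Jak1, Irf2, Jak2, Stat3 and Herc6 in astrocytes, and Pias1, Traf3, Irf2, Adar, Jak1 and Canx in both neuron classes.

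Summed over the promoters of the 23 members with a peak in every library, accessibility in microglia differed less between 5xFAD and wild type than their RNA did, and single promoters went both ways. A peak of the authors' list lay within 500 bases of the start of 25, 27, 24, 27 and 27 of the 33 members, where 52.2 to 53.7% of all genes had one. Peaks were listed for 23 members in all 5 libraries and for Ifi27l2a, Ifitm3, Isg15, Trim30a, Tap2 and Gbp2 in none. Accessibility over the 23, as counts in these peaks per 1000000 counts in peaks, was 937 (841 to 1040) in wild type microglia and 1001 (932 to 1074) in 5xFAD, and 995, 1023 and 1162 (1078 to 1250) in the other libraries. The 5xFAD and wild type intervals overlap, while RNA of the same 23 members stood at 851 and 2850 CPM, a ratio of 3.35 (2.65 to 4.28). Of single members with 1 peak in each library, Irf9 (peaks of 902 and 915 bases) stood at 26.7 (12.8 to 49.1) in wild type and 98.2 (77.5 to 123) in 5xFAD. Stat2 (889 and 884 bases) stood at 149 (113 to 194) and 75.2 (57.3 to 97.1), lower in 5xFAD, where its RNA was higher. At the class I promoters the sums were 376, 369, 379, 320 and 412 in microglia. In oligodendrocytes the 23 summed to 285, 347, 391, 432 and 385. Class I promoters gave 46.3 (37.8 to 56.2), 56.5 (46.2 to 68.4), 72.2 (59.3 to 87.2), 77.9 (66.1 to 91.2) and 57.5 (43.6 to 74.3). The order is that of class I RNA, but the intervals of the 4 5xFAD libraries overlap each other. Promoters of the other 17 members gave 239, 291, 318, 354 and 328, also lowest in wild type. No value over all promoters was set beside these sums. The B2m promoter, with its response element letters shown above, gave 11.2, 21.0, 37.5, 27.3 and 17.8 in oligodendrocytes. Peaks were called in each library, and over the 23 they covered 19134 to 20403 bases, or 14.3, 17.6, 20.4, 21.1 and 19.8 on that scale per kilobase covered in oligodendrocytes. Excitatory neurons gave 212, 216, 213, 212 and 207, nearly level over libraries.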

How the data were processed

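Per the submitters' processing notes, the authors processed the libraries with Cell Ranger ARC 2.0.0 on mm10, and Seurat is named as well. The authors deposited whole-number UMI counts per gene and cut counts per peak for each nucleus, and the unit is counts. Nuclei needed 500 detected genes or more and no more than 5% mitochondrial UMIs. Scrublet's automatic threshold did not work, so the highest-scoring 0.8% per 1000 nuclei were removed. Clustering used scanpy 1.11.5 and igraph 0.11.9 (2000 variable genes without the members, 40 components and 30 for glia, 15 neighbours, Leiden resolution 1). UMIs were summed per class and library and scaled to CPM. Ratio intervals are exact binomial, level intervals exact Poisson and share intervals Clopper-Pearson, and they cover counting error only. Log2 ratios add 5 CPM. The scripts were tested on simulated data. Members, lists and rules were chosen with earlier results of these data known. Members with at least 20 UMIs, at most 14 per class, are named with their values, as are those past 2-fold in the comparisons counted. Values of class I genes in nuclei without microglial markers, and of nuclei rich in members, were computed after seeing the data. Other tools were Python 3.11.15, numpy 2.4.6, pandas 2.3.3, scipy 1.17.1 and matplotlib 3.10.9. One pathway gene outside the member list is not reported here.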

Additional observations from a re-analysis of the deposited data

Results flagged for a closer look

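Eif2ak2, the double-stranded RNA kinase, lay on opposite sides of 1 in 2 classes of the neuron-labelled KO library relative to 5xFAD. The ratio was 1.31 (1.06 to 1.61) in excitatory neurons and 0.502 (0.244 to 0.969) in microglia. The median of all genes measured in excitatory neurons was itself 1.17-fold in that comparison, which lies within the Eif2ak2 interval. The microglial value rests on 13 UMIs against 36. With 1 library per group, the difference between the classes was not tested.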

How the results depend on the processing

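No paired analysis was possible because every genotype was sequenced as 1 library. Of the alternatives, 10 were planned and 2 (without nuclei holding 2 T or NK cell or border macrophage markers, and without nuclei rich in members) were chosen after seeing the data. Values reported first stand in brackets, the counts are members past 2-fold, and comparisons of the KO libraries are to 5xFAD. The number of members measured and the share of all genes past 2-fold under each alternative are not given, so these counts are not set against a background. The microglial counts for 5xFAD against wild type [11 higher] were 6 with a minimum of 30 UMIs, 20 with none, and 5 in Y-linked nuclei, with 0 lower where these were run. The astrocyte-labelled KO library [1 higher, 2 lower] had 2 higher with a pseudocount of 1 CPM, 0 higher and 1 lower with 30 UMIs, 0 and 0 with nuclei assigned by highest marker score, 1 lower with doublets kept, with members kept in clustering or without the nuclei holding T or NK cell or border macrophage markers, and 0 lower without the nucleus richest in members. Its median [0.06] was -0.48 in Y-linked nuclei. The neuron-labelled KO library [1 higher, 1 lower] had 0 and 0 with 30 UMIs, 4 and 3 with no minimum, 4 and 0 by highest marker score, 2 and 0 with doublets kept, and 0 higher in Xist nuclei. The global-labelled KO library [0 higher, 3 lower] had 1 lower with 30 UMIs and in Xist nuclei, and 2 higher and 5 lower with no minimum. In oligodendrocytes, 5xFAD against wild type [2 higher, 0 lower] gave 4 higher and 1 lower with a pseudocount of 1 CPM, 1 higher by highest marker score, and 0 higher with 30 UMIs and in Y-linked nuclei. The astrocyte-labelled KO library [2 higher] gave 1 in Xist and 0 in Y-linked nuclei, the neuron-labelled KO library [3 higher] gave 6 with a pseudocount of 1 CPM and 12 by highest marker score, and the global-labelled KO library [0 lower] gave 1 in Xist nuclei. H2-K1 of the neuron-labelled KO library in oligodendrocytes [log2 ratio 1.23] was -0.00 in Y-linked nuclei. The median of excitatory neurons for 5xFAD against wild type [0.00] was 0.05 with 30 UMIs, 0.04 by highest marker score and 0.09 in Xist nuclei. The causes were not tested, except that fewer UMIs or nuclei leave fewer members measured. Without rich nuclei the summed ratio of the 26 members outside class I in microglia was 1.23 for 5xFAD against wild type [2.68]. For the astrocyte-, neuron- and global-labelled KO libraries it was 1.49, 1.18 and 1.37 [0.896, 0.911 and 0.736], so all 3 went from below 1 to above 1. The intervals of 1.23 (0.913 to 1.66) and 1.18 (0.916 to 1.5) include 1. Rich nuclei were chosen by the UMIs summed and held the largest share of them in 5xFAD, so these shifts follow in part by construction. In oligodendrocyte precursors the summed ratio without rich nuclei was 1.92 for the neuron-labelled KO library [3.23]. Size factors moved none of the 26 summary results. Of the other results compared under size factors, 4 moved and 38 stayed the same. Astrocytes gave no value in Y-linked nuclei or with 30 UMIs.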

Other observations

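Oligodendrocyte precursors, which the chosen classes did not include, had the members at 146, 212, 453, 640 and 291 CPM (wild type, 5xFAD, then the astrocyte-, neuron- and global-labelled KO libraries). The ratio of the neuron-labelled KO library to 5xFAD was 3.01 (2.54 to 3.6). The 26 members outside class I stood at 88.0, 137, 296, 443 and 192 CPM (neuron-labelled KO library over 5xFAD 3.23, 2.61 to 4.03), and the 7 class I genes at 57.9, 75.2, 157, 197 and 99.3 CPM. Rnf213 stood at 11.1, 17.1, 57.8, 85.3 and 24 CPM and Nlrc5 at 0, 5.28, 12.7, 24.8 and 5.14 CPM. In the neuron-labelled KO library 6 nuclei of 149 held 211 of the 483 UMIs of the 26 members (43.7%). One of them held 90, led by Rnf213 with 23 and Rsad2 with 12, and 2 others of the 6 held 75 and 92 UMIs of microglial markers, which are genes of another class than the one these nuclei were placed in. Without nuclei rich in the 26 members, chosen by those same UMIs, their sums were 88.0, 137, 279, 263 and 170 CPM. The astrocyte-labelled KO library was then the highest, and the ratio of the neuron-labelled one to 5xFAD was 1.92 (1.52 to 2.42).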
